A study of Mus musculus with 9 samples.

Results

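The 10 pluripotency genes described here are Pou5f1, Nanog, Sox2, Klf4, Esrrb, Zfp42, Utf1, Dppa3, Dnmt3b and Tdgf1. They were read from every non-control spot that carried one of these gene names, which gave 10 of 27597 gene names and 12 of the 41174 probes on the array, with 2 probes each for Esrrb and Zfp42 and 1 for each other gene. Levels came from 9 single-colour Agilent arrays, 3 in each of 3 groups, and the cells were from tibialis anterior of mice aged 3 months. The iPax3 group held mononucleated cells re-isolated after injection of iPax3 cells, and the iPax7 group held the same kind of cells after injection of iPax7 cells. The strain of both is labelled NSG/NSGmdx4cv, and the label does not say which of these hosts gave which array. The satellite group held adult satellite cells, the muscle stem cells, of the strain Pax7-ZsGreen. As known of the study, iPax3 and iPax7 are myogenic progenitors derived from mouse pluripotent stem cells in which Pax3 or Pax7, paired-box factors of the muscle lineage, can be induced. Per the labels, 1500 cells were sorted in each of 3 experiments, with 3 mice to a line, and their RNA was amplified as cDNA. The gate of the sort is not given in the labels. Re-isolated and satellite cells therefore differed in strain and in injection as well as in cell source.

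The pluripotent state of early embryo cells is held by a network of transcription factors in which Oct4 (Pou5f1), Sox2 and Nanog bind shared enhancers and sustain their own and each other's expression. Klf4, Esrrb and Zfp42 belong to the naive, inner-cell-mass-like form of that state, and Klf4 with Oct4, Sox2 and Myc is one of the classical reprogramming factors. The network is shut down as cells leave pluripotency, although Klf4 and Sox2 have further roles in somatic tissues. Lasting expression in cells derived from pluripotent stem cells is a common check for undifferentiated cells, which can form teratomas.

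The probes are shown for Pou5f1 and Utf1 because each gene was read from a single stretch of its transcript, and the stretch shared by both Zfp42 probes is shown because those probes gave unlike readings. All probes were 60 bases long, and positions are those of build mm8 in the scanner files. The positions listed for the Pou5f1 probe and for 1 Zfp42 probe, at chr8:44794170-44794241, span more than 60 bases. The reason was not examined. The Pou5f1 probe lies at chr17:35118388-35118448 on the plus strand and starts at base 903 of its transcript. The Utf1 probe lies at chr7:139795541-139795600 on the plus strand and starts at base 365. The Zfp42 probes share 20 bases at chr8:44794170-44794189 on the minus strand. No other probe on the array shared a run of 20 bases, on either strand, with any of the 12 probes.
Pou5f1: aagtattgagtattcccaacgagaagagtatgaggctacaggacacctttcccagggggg
Utf1: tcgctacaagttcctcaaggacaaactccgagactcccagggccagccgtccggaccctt
Zfp42, shared stretch: tgtgctattgaaggggatgg

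The arrays differed among themselves before any group is compared. The 75th percentile of the signal ran from 271.4 to 509.2 on the re-isolated arrays and from 206.5 to 849.0 on the satellite arrays. Satellite replicate 1 was closer to each re-isolated array than satellite replicates 2 and 3 were. Over all probes it correlated at r = 0.628 to 0.752 with the re-isolated arrays, against 0.536 to 0.636 for satellite replicates 2 and 3. It did not stand apart within its group, where it correlated at 0.677 and 0.638 with satellite replicates 2 and 3. Those replicates correlated at 0.664 with each other. All re-isolated arrays were scanned on 1 day and shared 2 slides, and each satellite array lay on a slide of its own. Satellite replicate 1 was scanned on another day, and satellite replicates 2 and 3 together on a later listed day. Slide, scan day and strain therefore cannot be told apart from the difference between re-isolated and satellite cells. Nor can scan day be told apart from differences between satellite replicate 1 and satellite replicates 2 and 3.

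No test found a difference between re-isolated and satellite cells in any of the pluripotency genes that could be tested. Sox2 was not well above background on any of the 9 arrays, and Dppa3 was on 1, so neither entered the test. Pou5f1, Klf4, Utf1, Tdgf1, 1 Esrrb probe and 1 Zfp42 probe were well above background on all 9 arrays, in satellite cells as in re-isolated cells. Nanog and the other Esrrb probe were on 8 arrays, and Dnmt3b and the other Zfp42 probe on 4. A spot was well above background when the scanner software's own flag, set at 13 standard deviations of the background, said so. Per array, 7 to 8 of the 10 genes had such a probe in iPax3, 7 to 8 in iPax7 and 6 to 8 in satellite cells. The flag was common: 57.2% to 77.7% of all non-control spots carried it on the re-isolated arrays and 57.4% to 79.9% on the satellite arrays. On all 9 arrays it was carried by 6 of the 12 pluripotency probes and by 16550 of the 41174 probes.

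The levels that follow are log2 signals minus the 75th percentile of the same array, so a level of 0 is that percentile. They serve to compare arrays for one probe and not one gene with another. Differences come from a limma fit over all 32953 probes that passed a filter of 3 arrays well above background. They carry the standard error of the fit, and the p-values are Benjamini-Hochberg adjusted over all probes. Of the 12 probes, 10 passed the filter, for 8 genes. None of these 10 was called at an adjusted p of 0.05 in any comparison, and the smallest unadjusted p was 0.0725. Among all probes the share called was 0.385% for iPax3 minus satellite, 0.434% for iPax7 minus satellite, 0.759% for both lines minus satellite and 0.0% for iPax7 minus iPax3. At those shares, no call among 10 probes is what the background gives. At an unadjusted p of 0.05 the counts were likewise 0 of 10 in each comparison. Over all probes they were 3950, 3869, 4722 and 1409 in the same order.

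**Figure D1:**
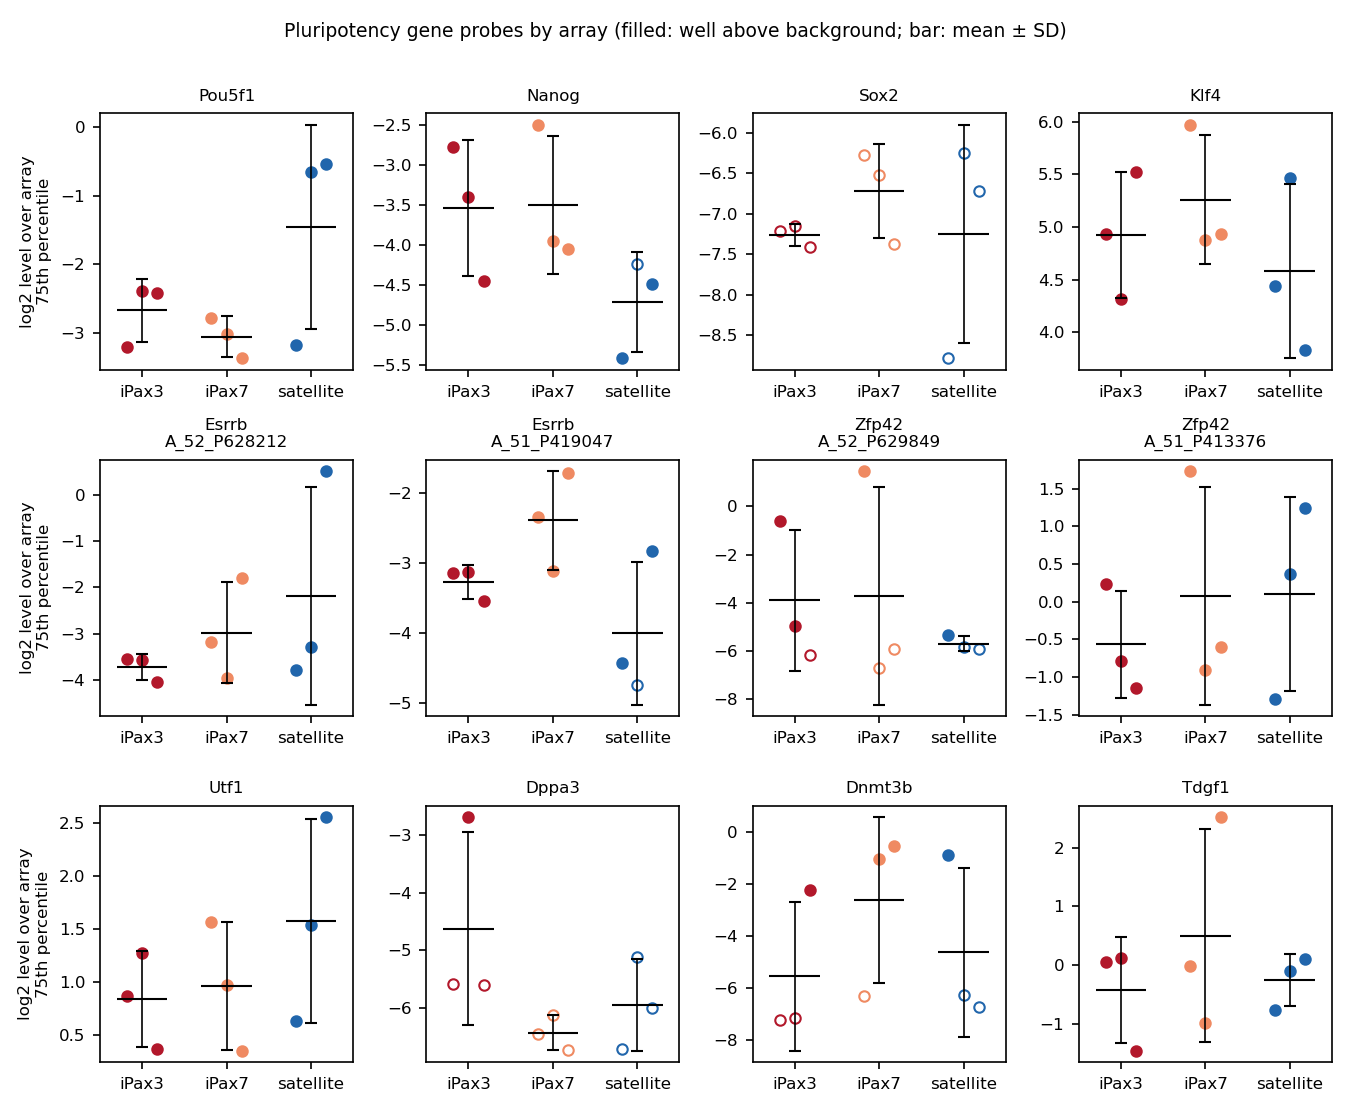
Level of each of the 12 probes on each array (log2 signal minus the array's 75th percentile), with iPax3, iPax7 and satellite cells from left to right. Filled points are well above background, open points are not, and the bars give the mean and SD of 3 arrays. The vertical scale differs between panels. Pou5f1, Klf4 and Utf1 points are filled in every group, Sox2 points are open in every group, and Dnmt3b and 1 Zfp42 probe split within groups.

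Among the core factors, Pou5f1, which encodes Oct4, had levels of -3.20, -2.39 and -2.42 in iPax3 and -2.78, -3.02 and -3.37 in iPax7, against -3.17, -0.66 and -0.54 in satellite cells. Satellite replicates 2 and 3 were the highest of the 9 arrays, while satellite replicate 1 lay within the range of the re-isolated arrays, so the groups overlapped. In processed signal before scaling, Pou5f1 read 43.4, 85.5 and 91.6 in iPax3, 39.5, 62.6 and 45.4 in iPax7, and 94.3, 223.7 and 142.3 in satellite cells. Before scaling, every satellite array was above every re-isolated array, the nearest by 94.3 against 91.6. The 94.3 is from satellite replicate 1, with a 75th percentile of 849.0, and the 91.6 from iPax3 replicate 3, with 491.5. Signals before scaling carry such differences in brightness between arrays. The share of all probes with this pattern before scaling was not counted. These signals were 9.64 to 52.7 times the 99th percentile of the negative control spots of their arrays. The difference of both lines minus satellite was -1.41 ± 0.75 (SE, 95% confidence interval -3.11 to 0.29, adjusted p = 0.431). Without satellite replicate 1 it was -2.26, with an adjusted p of 0.101, the smallest of any of the 10 probes under any alternative. Satellite replicates 2 and 3 were also among the arrays with fewest spots well above background, 57.4% and 60.8%, against 57.2% to 77.7% on the re-isolated arrays and 79.9% on satellite replicate 1. The re-isolated array with 57.2%, in iPax7, had a Pou5f1 level of -2.78. The part of the share of spots well above background in the Pou5f1 levels was not tested.

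Nanog, a homeodomain factor, had levels of -2.77, -3.40 and -4.45 in iPax3 and -2.50, -3.95 and -4.05 in iPax7, against -5.42, -4.24 and -4.49 in satellite cells. Every iPax7 array was above every satellite array, whereas iPax3 and satellite arrays overlapped. The highest satellite value, -4.24, was a spot not well above background. Nanog was 1.17 ± 0.81 higher in level in iPax3 (adjusted p = 0.584) and 1.21 ± 0.81 in iPax7 (adjusted p = 0.609) than in satellite cells, on the log2 scale. Neither difference passed the test, and the interval for both lines together, -0.40 to 2.79, takes in 0. Groups that did not overlap were common on these arrays: 15.8% of probes had none for iPax7 and satellite cells, and Nanog was 1 of 10 pluripotency probes. For iPax3 and satellite cells, 0 of 10 probes and 18.5% of all probes had non-overlapping groups, and for both lines and satellite cells 0 of 10 and 7.86%.

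Sox2, the HMG-box partner of Oct4, gave no signal that the software separated from background. All 9 of its processed signals were substitutes that the software wrote in place of a signal too low to use. They lay at 0.726 to 0.896 times the 99th percentile of the negative controls. At this signal no difference in Sox2 was detectable between groups.

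Of the naive-state and reprogramming factors, Klf4, a zinc-finger factor that also responds early to stimuli in many somatic cells, was far above background everywhere. Its processed signal was 8947.6 to 22514.3 in iPax3 and 14279.5 to 16969.7 in iPax7, against 2930.5 to 18368.0 in satellite cells, at least 1090 times the 99th percentile of the negative controls. As levels, these were 4.93, 4.32 and 5.52 in iPax3 and 5.97, 4.88 and 4.93 in iPax7, against 4.44, 5.47 and 3.83 in satellite cells. The 3 groups overlapped, and the lowest array was satellite replicate 3. The Klf4 difference was 0.51 ± 0.67 for both lines minus satellite (adjusted p = 0.766). Its interval, -1.0 to 2.03, runs from 0.499-fold to 4.08-fold and takes in changes in either direction.

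Esrrb, an orphan nuclear receptor of the naive network, was read by 2 probes whose differences had opposite signs. The probe at chr12:87404222-87404281, designed on the cDNA AK044339, had levels of -3.56, -3.58 and -4.05 in iPax3 and -3.18, -3.96 and -1.80 in iPax7, against -3.78, -3.29 and 0.52 in satellite cells. Its difference of -1.17 ± 1.02 for both lines minus satellite (adjusted p = 0.633) rested on satellite replicate 3, and was 0.18 without it. The probe at chr12:87410542-87410601, designed on the RefSeq transcript, had levels of -3.15, -3.13 and -3.55 in iPax3 and -2.35, -3.12 and -1.72 in iPax7, against -4.43, -4.74 and -2.84 in satellite cells. Its difference was 1.16 ± 0.69 (adjusted p = 0.467), and satellite replicate 3 was again the highest of its group. All iPax7 arrays were above all iPax3 arrays on this probe, the nearest by -3.12 against -3.13. It was 1 of the 10 probes with that pattern, against 9.36% of all probes, and its iPax7 minus iPax3 difference was 0.88 ± 0.79 (adjusted p = 1.0).

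Zfp42, known as Rex1, is a zinc-finger gene used as a reporter of the naive state. The probe at chr8:44794130-44794189 was well above background on all arrays, with levels of 0.23, -0.79 and -1.14 in iPax3 and 1.73, -0.90 and -0.60 in iPax7, against -1.29, 0.37 and 1.24 in satellite cells. The groups overlapped and the difference was -0.35 ± 0.87 for both lines minus satellite (adjusted p = 0.886). The other probe, at chr8:44794170-44794241, shares with it the 20 bases printed above. It was well above background on iPax3 replicates 1 and 2, iPax7 replicate 1 and satellite replicate 1. Its processed signal was 264.7, 14.5 and 6.9 in iPax3 and 748.2, 4.9 and 7.8 in iPax7, against 21.1, 6.2 and 3.5 in satellite cells. iPax7 replicate 1 and iPax3 replicate 1 thus gave clear signals, and the highest of the others was 21.1. The levels of this probe spanned 8.16 log2 units within iPax7, a spread that 5.66% of all probes reached within some group. Its difference of 1.88 ± 1.86 (adjusted p = 0.679) was therefore poorly determined. The array highest on both Zfp42 probes was iPax7 replicate 1.

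**Figure D2:**
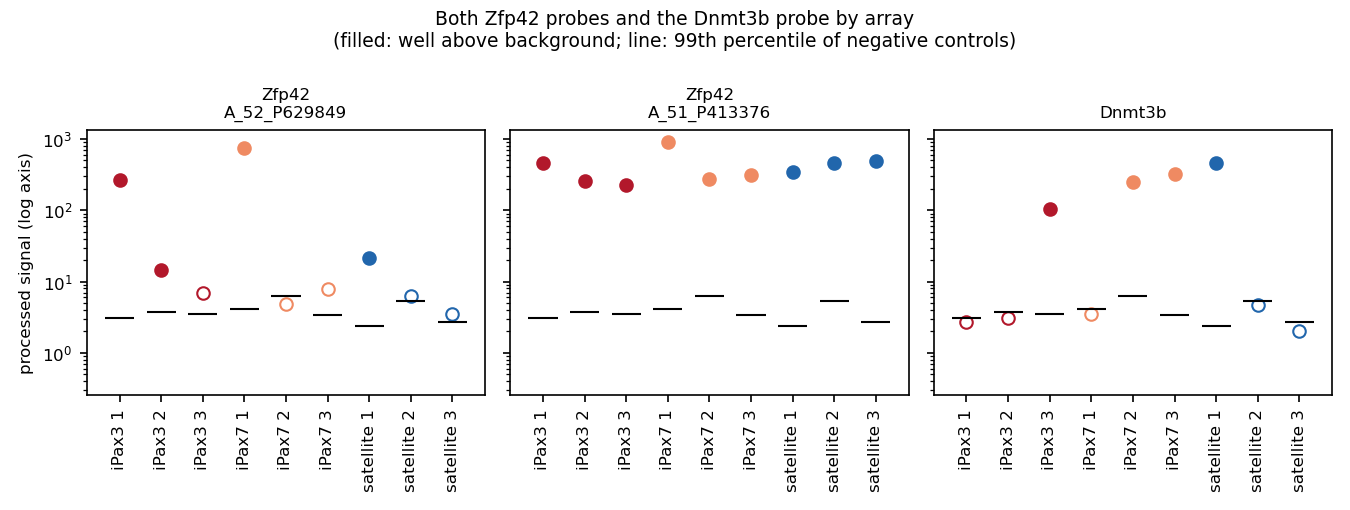
Processed signal on a log axis for both Zfp42 probes and the Dnmt3b probe, array by array, with the 99th percentile of the negative controls of each array as a line. Filled points are well above background. One Zfp42 probe reads 264.7 and 748.2 on 2 re-isolated arrays and at most 21.1 elsewhere, with iPax3 replicate 2 and satellite replicate 1 also well above background, the other is above them on all 9 arrays, and Dnmt3b is clear of them on 4 arrays.

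Among the cofactors and chromatin genes, Utf1, a chromatin-bound factor of pluripotent cells, was well above background on every array. Its levels were 0.87, 1.27 and 0.37 in iPax3 and 1.56, 0.97 and 0.35 in iPax7, against 0.63, 1.54 and 2.55 in satellite cells. The groups overlapped, and the highest array was satellite replicate 3. The Utf1 difference was -0.74 ± 0.78 in iPax3 (adjusted p = 0.726) and -0.61 ± 0.78 in iPax7 (adjusted p = 0.803), each minus satellite. Without satellite replicate 3 they were -0.25 and -0.12. The signals before scaling were 633.5 to 1077.1 in iPax3 and 598.6 to 1000.4 in iPax7, against 1030.1 to 1310.9 in satellite cells.

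Dppa3, also called Stella, protects the methylation of the maternal genome in the early embryo and marks primordial germ cells. Only iPax3 replicate 2 carried a spot well above background, with a processed signal of 68.5. The other 2 iPax3 arrays read 8.3 and 10.2, the iPax7 arrays 3.1, 7.4 and 4.5, and the satellite arrays 8.1, 10.2 and 3.2. No fold is given for Dppa3, since it rests on 1 array.

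Dnmt3b, a de novo DNA methyltransferase that is high in the early embryo, was well above background on iPax3 replicate 3, iPax7 replicates 2 and 3 and satellite replicate 1. Its processed signal was 2.7, 3.1 and 104.6 in iPax3 and 3.5, 246.9 and 326.7 in iPax7, against 464.0, 4.7 and 2.0 in satellite cells. Each group thus held arrays clear of the background and arrays at it. The largest range within a group was 5.85 log2 units. The differences were -0.92 ± 2.14 in iPax3 (adjusted p = 0.884) and 1.99 ± 2.14 in iPax7 (adjusted p = 0.759), each minus satellite. Between the lines, iPax7 minus iPax3 was 2.92 ± 2.14 (adjusted p = 1.0), and it was -0.75 on the single slide that held both lines, where iPax7 had 1 array, with Dnmt3b at background, against all 3 iPax3 arrays.

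Tdgf1, or Cripto, is a membrane-anchored co-receptor for the growth factor Nodal. Its levels were 0.06, 0.13 and -1.46 in iPax3 and -0.02, -0.99 and 2.52 in iPax7, against -0.76, -0.10 and 0.10 in satellite cells. The highest value was that of iPax7 replicate 3, and the groups overlapped. The difference of both lines minus satellite was 0.29 ± 0.87 (adjusted p = 0.909), and it was -0.21 without that array.

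**Figure D3:**
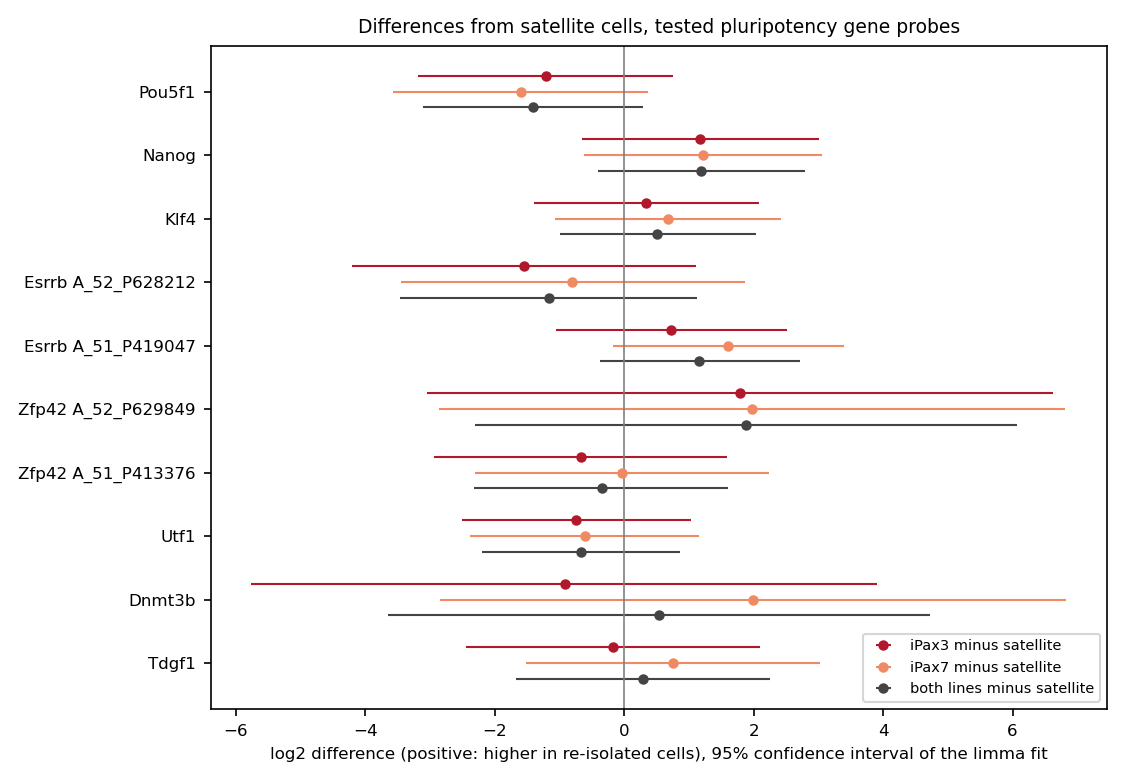
Log2 differences from satellite cells for the 10 tested probes (points) with 95% confidence intervals of the limma fit (lines), for iPax3, iPax7 and both lines. All 30 intervals include 0. The intervals of Dnmt3b and of 1 Zfp42 probe are the widest.

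Over the 10 tested probes, the median difference of both lines minus satellite was 0.40, against -0.02 over all probes tested, and the probes ranged from -1.41 for Pou5f1 to 1.88 for Zfp42. With 1 probe for each of the 8 tested genes, 4 differences were positive and 4 negative and the median was -0.03. For iPax3 minus satellite the median was -0.42 over the probes and -0.70 over the genes, against -0.03 over all probes. For iPax7 minus satellite it was 0.72 over the probes and 0.33 over the genes, against -0.06. These 3 comparisons share the same satellite arrays. For iPax7 minus iPax3, 9 of the 10 differences were positive and their median was 0.49, against 0.02 over all probes, with none called. On the slide that held both lines, iPax7 replicate 1 alone stood against the 3 iPax3 arrays, and the differences ran from -0.75 for Dnmt3b to 5.36 for a Zfp42 probe whose difference over all arrays was 0.18. The range within a group passed 4 log2 units on 3 of the 10 probes and on 47.9% of all probes.

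The wider network gave no called gene either, with 1 probe standing for each gene. Of 36 further pluripotency genes 33 had a named probe and 26 were tested, with 0 called in each of the 4 comparisons and a median difference of -0.41 for both lines minus satellite. At an unadjusted p of 0.05 the count was 3 of 26, against 4722 of 32953 over all probes. The 3 genes with the largest differences were Trim28, Klf2 and Rif1. Trim28, a co-repressor of zinc-finger proteins that silence retroelements, averaged -0.35 ± 2.18 in iPax3 and 0.03 ± 1.91 in iPax7, against 3.16 ± 2.65 in satellite cells (SD, n = 3 arrays each, limma adjusted p = 0.334). Klf2, a sister factor of Klf4 in the naive network, had levels of 3.12 to 3.58 in iPax3 and 3.19 to 4.12 in iPax7, against 4.63 to 6.57 in satellite cells. Re-isolated and satellite arrays did not overlap for Klf2, which held for 7.86% of all probes. The Klf2 difference of -2.20 ± 0.66 had an adjusted p of 0.189. Rif1, a factor of replication timing, differed by 1.87 ± 1.08 (adjusted p = 0.459).

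LIF signalling through gp130, Jak1 and Stat3 keeps mouse embryonic stem cells undifferentiated, and these genes also act in muscle. Of 7 genes tested for this pathway and Myc, 0 were called, with a median difference of 0.80. Socs3, the feedback inhibitor of the pathway, had levels of 4.39, 3.59 and 4.92 in iPax3 and 4.68, 4.44 and 4.34 in iPax7, against 4.6, -0.09 and 0.63 in satellite cells. Satellite replicate 1 thus lay with the re-isolated arrays and satellite replicates 2 and 3 well below. The Socs3 difference of 2.68 ± 1.02 had an adjusted p of 0.284 and was called without satellite replicate 1. Jak1 differed by 2.16 ± 1.16 (adjusted p = 0.432), and by 0.42 without satellite replicate 3, where its level was -3.8. Stat3 differed by 1.24 ± 0.75 (adjusted p = 0.479, with its other probe opposite in sign) and Myc by -1.08 (adjusted p = 0.544). The unadjusted count for both lines was 1 of 7.

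Among 8 other Klf genes 0 were called, with a median of 0.15, and 2 had an unadjusted p under 0.05. Klf3, a repressor that acts in muscle differentiation, differed by 3.62 ± 1.83 (adjusted p = 0.407) and Klf9 by -1.97 ± 0.69 (adjusted p = 0.255). Among 10 other Sox genes 0 were called, with a median of -0.77, and 2 had an unadjusted p under 0.05. Sox5 differed by 2.69 ± 1.33 (adjusted p = 0.396), Sox17 by -2.18 ± 0.95 (adjusted p = 0.343) and Sox7 by -2.17 ± 0.72 (adjusted p = 0.232). Sox17 and Sox7 are endoderm and endothelial factors. Sox5 and Sox17 each had other probes with a difference of the opposite sign.

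Among 8 genes of DNA methylation other than Dnmt3b, 0 were called for both lines and 0 had an unadjusted p under 0.05, with a median of -0.33. Dnmt3l, the inactive partner of the de novo enzymes, differed by -1.69 ± 0.83 (adjusted p = 0.395), and Tet2, which oxidises methylcytosine, by -1.52 ± 1.88 (adjusted p = 0.75). Dnmt3a, the other de novo enzyme, had levels of 3.46, 4.29 and 5.0 in iPax3 and 0.56, 1.96 and 2.99 in iPax7, against 3.21, 4.42 and 5.64 in satellite cells. Every iPax7 array lay below every other array. Among all probes, 15.8% had no overlap between iPax7 and satellite cells and 9.36% none between iPax7 and iPax3. The adjusted p of iPax7 minus satellite was 0.347, and 2 other Dnmt3a probes had a both-line difference of the opposite sign.

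Early lineage genes, which mark the first steps out of pluripotency, gave 0 called of 10 tested, all 10 with negative differences and a median of -0.97. The median over all tested genes, with 1 probe a gene, was -0.16. At an unadjusted p of 0.05 the early lineage count was 2 of 10, against 4722 of 32953 over all probes. Sox1, a neural plate factor, had levels of -1.23, -0.85 and -0.88 in iPax3 and -0.55, -0.66 and 0.47 in iPax7, against 1.1, 3.32 and 3.35 in satellite cells. Re-isolated and satellite arrays did not overlap for Sox1, which held for 7.86% of all probes. The Sox1 difference was -3.21 ± 0.72 with an adjusted p of 0.0953. It was called under 4 of the alternatives, with adjusted p-values between 0.0183 and 0.0438. The mesoderm and endoderm factor Eomes differed by -1.62 ± 1.03 (adjusted p = 0.501). The lineage markers T, Afp and Otx2 had no spot flagged well above background. Of 8 germ cell genes 5 were tested and 0 called, with 0 of 5 at an unadjusted p under 0.05. Prdm1 differed by -1.49 ± 2.35 (adjusted p = 0.812), Dazl by 1.28 ± 1.21 (adjusted p = 0.662) and Nanos3 by -0.50 ± 0.80 (adjusted p = 0.814).

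**Figure D4:**
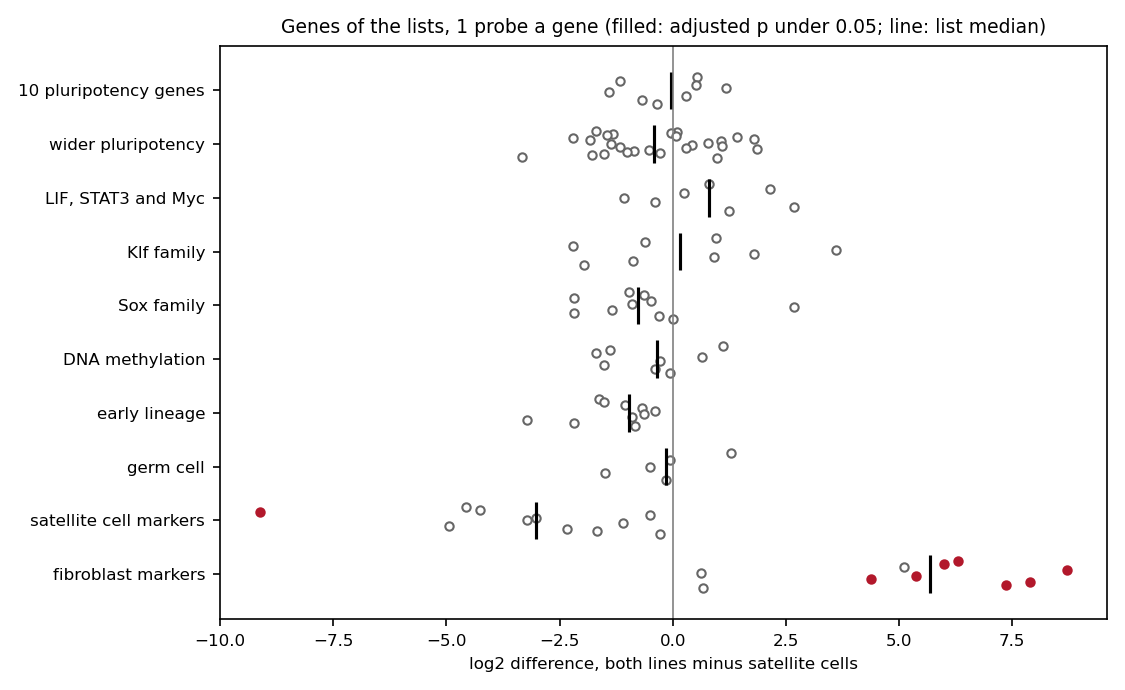
Log2 difference of both lines minus satellite for each tested gene of the lists, 1 probe a gene, with the list median as a line. Filled points have an adjusted p under 0.05. None of the pluripotency lists holds a filled point, while the fibroblast markers, with a median of 5.69, hold 7 and the satellite cell markers, with a median of -3.03, hold 1.

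RNA levels of fibroblast markers, and of 1 satellite cell marker, differed between re-isolated and satellite cells. Of 10 fibroblast markers 7 were called higher for both lines minus satellite. For the single lines 5 were called in iPax3 and 6 in iPax7, with Lum in neither and Ly6a in iPax7 only. Among the 7 were the matrix gene Dcn at 8.71 ± 0.68 (adjusted p = 0.00119) and the receptor Pdgfra at 7.90 ± 0.72 (adjusted p = 0.00202). The others were Postn, Col1a1, Col1a2, Lum and Ly6a, at 4.38 to 7.37. Lum and Ly6a, with adjusted p-values of 0.0383 and 0.0234, were not called with slide or scan day as a random block or without some single arrays. The summed level of the list was 456 to 841 in iPax3 and 569 to 1070 in iPax7, against 44.7 to 88.1 in satellite cells, in units of the array's 75th percentile. Of 11 tested satellite cell markers, all 11 had negative differences and 1, Chrdl2, was called, at -9.12 ± 0.64 (adjusted p = 0.00119). Their summed level was 41.6 to 51.2 in iPax3 and 30.3 to 72.0 in iPax7, against 175 to 251 in satellite cells. Pax7 itself, the factor that defines satellite cells, had a difference of -4.94 ± 1.07 (adjusted p = 0.0863), which was called under 2 alternatives. Of the endothelial, leukocyte and Schwann cell markers, 8 of each tested, 0 were called, with medians of -0.65, 0.35 and -1.24. Their summed levels were 4.34 to 6.18, 4.70 to 11.8 and 16.9 to 28.3 in iPax3, and 8.30 to 63.6, 9.46 to 19.3 and 15.7 to 22.9 in iPax7. In satellite cells they were 9.66 to 19.2, 5.73 to 12.5 and 21.3 to 65.8. The part of these marker levels in the levels of the pluripotency genes was not tested. In these bulk samples, fewer cells of a type and less RNA per cell cannot be told apart.

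For the 6 pluripotency probes well above background on all arrays, the named genes with the most similar pattern were found by Pearson's r over the 9 arrays, among 14294 probes. The arrays share their labelling and scaling, and the values are descriptions of these 9 arrays. Pou5f1 was most like Cerox1, Gas5 and Mfge8, at r = 0.98, 0.98 and 0.97 and Spearman's rho = 0.88, 0.95 and 0.83. Without satellite replicates 2 and 3, the arrays farthest from its median, these were r = 0.89, 0.86 and 0.79. Utf1 was most like Efna4, Acod1 and Peli2, at r = 0.98, 0.97 and 0.97. Klf4 was most like Uqcc3, Atp5h and Calml4, at r = 0.95, 0.95 and 0.94. Esrrb was most like Phgr1, Ccdc127 and Mmd2, each at r = 0.97, which came to 0.58, 0.55 and 0.43 without satellite replicate 3 and iPax7 replicate 3. Zfp42 was most like Alkbh7, Krtap31-1 and Hs1bp3, at r = 0.99, 0.98 and 0.96. Tdgf1 was most like Mgat4f, Rexo5 and Ccdc78, at r = 0.97, 0.96 and 0.95, which came to 0.91, 0.70 and 0.64 without iPax7 replicate 3 and iPax3 replicate 3. For Utf1, Klf4 and Zfp42 the values without the 2 arrays farthest from the median stayed between 0.86 and 0.97.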

How the data were processed

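The 9 scanner tables held 45018 spots each, of which 1639 were controls. Their intensity values were written, per the file headers, by version 10.5.1.1 of Agilent's Feature Extraction software, with detrending and background subtraction, and the flag for spots well above background was set there. A deposited table gave values on the log2 scale for 31918 spots, for which the submitters' processing notes name limma. Its columns had medians of 7.633 to 7.709 and followed the log2 mean signals of their own arrays at r of 0.9875 to 0.9993. It is uncentred, its adjustment between arrays is unknown, and it served as an alternative. It lacked Sox2, Dppa3 and 1 Zfp42 probe.

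From the processed signal, the log2 value minus each array's 75th percentile over non-control spots was computed. Outlier spots (60 to 342 per array) were left out, spots of a probe averaged, and probes well above background on at least 3 of 9 arrays kept (32970, of which 32953 could be tested). No spot was saturated. The functions lmFit and eBayes of limma 3.58.1 (R 4.3.3) fitted 1 mean per group over all 9 arrays, with 6 residual and 3.2 prior degrees of freedom, a Benjamini-Hochberg adjusted p of 0.05, and no replicate block. The number of arrays limits the precision. The fit was tested on simulated data with changes added to 200 probes. Of changes of 2 log2 units, 0% were called in each comparison. Of changes of 4 log2 units, 2% to 18% were called, and of 8 log2 units 60% to 82%. These 200 probes were drawn from all tested probes with their own spreads, so the rates do not describe the pluripotency probes one by one. By itself, the absence of a call therefore says little about changes of 4 log2 units or less. The confidence intervals say more. For both lines minus satellite, only those of Dnmt3b (-3.65 to 4.72) and of 1 Zfp42 probe (-2.31 to 6.07) reached 4 log2 units. The labels do not tie an array to its animals, so p-values reflect only spread among these samples, which may be in part technical.

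For lists, the probe with the highest mean stood for its gene. Gene names were updated through accessions, current symbols and older symbols of the RefSeq gene table of GRCm38.p6, and 8072 of 41174 probes kept the file's name. All members were described, and of each further list any called gene and otherwise the 3 largest differences. Myc and the lineage markers at background were named after their values were seen. The genes and lists were chosen with earlier results of these data known. Alternatives covered background correction, normalization, the filter on dim probes, 1 probe a gene, the deposited table, samples in the fit, blocks by replicate, slide and scan day, the variance model and each array left out.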

Additional observations from a re-analysis of the deposited data

How the results depend on the processing

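No pluripotency probe was called in any of the 840 fits of a single probe and comparison under the 23 alternatives, and the smallest adjusted p was 0.101. The counts over all probes did move. For iPax3 minus satellite, iPax7 minus satellite and both lines minus satellite they were 127, 143 and 250. They were 205, 236 and 379 with the deposited table, 19, 71 and 70 with slide as a random block, and 39, 58 and 72 with scan day as a random block. Fitting only the groups compared gave 20 and 40 for the single lines, and probes above background on all 9 arrays gave 84 and 93. Replicate numbers did not pair the samples: the deviations of same-numbered arrays correlated near 0, at 0.007 to 0.025 between iPax3 and iPax7. The replicate block gave 24, 75 and 127. Leaving out 1 array gave 14 to 671, 50 to 708 and 89 to 973, each highest without satellite replicate 1. iPax7 minus iPax3, with 0 called, had 2 with quantile normalization and 1 with slide as a random block, and 0 with slide as a fixed block or within the shared slide.

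Differences that changed sign were all uncalled, and the cause was not tested. With normexp background correction, Dnmt3b for both lines was -0.43, Nanog in iPax3 -0.04 and the RefSeq Esrrb probe in iPax3 -0.15, the last also -0.12 in the deposited table. Dnmt3b for iPax7 minus iPax3 was -0.75 with slide as a fixed block and within the shared slide, both resting on iPax7 replicate 1 alone. With 1 array left out, both-line differences ran from -1.97 to 0.18 for the other Esrrb probe, -1.05 to 0.22 for the Zfp42 probe seen on all arrays, -0.52 to 2.41 for Dnmt3b, -0.21 to 0.67 for Tdgf1, -3.89 to 0.32 for Tet2 and -3.12 to 0.68 for Prdm1. Klf4 in iPax3 ran from -0.03 to 0.79 and that Esrrb probe in iPax7 from -1.59 to 0.55. Normexp moved the median of all probes for both lines to -0.22, and the scaling by probes above background on all arrays moved it to 0.20.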
